A study of Mus musculus with 12 samples.

Results

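Enzymes that write and erase methyl groups on histones were followed in mouse B cell acute lymphoblastic leukemia (B-ALL) cells, together with the core subunits of Polycomb repressive complex PRC2. The 55 genes are the ones, out of 12151 in the expression table, whose symbols carry the names of the Kmt, Kdm, Setd, Ezh, Nsd, Suv, Ehmt and Prmt families or equal Eed, Suz12, Dot1l, Ash1l, Whsc1 or Whsc1l1. Membership was decided by name, without a threshold on expression. Some appear under older symbols, namely Whsc1 for Nsd2, Whsc1l1 for Nsd3, Setd8 for Kmt5a, Suv420h1 for Kmt5b, Suv420h2 for Kmt5c and Prmt10 for Prmt9.

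Most of the encoded proteins add or remove methyl groups at particular histone residues, and others are complex subunits or act on further proteins. Methylation of H3K4 marks promoters and enhancers in use, H3K36 and H3K79 methylation follow transcribed genes, H3K9 methylation marks heterochromatin, and PRC2 places the H3K27 methylation of silenced developmental genes. In B lymphoid cells Ezh2 is known for its role in the expansion of early precursors and germinal center cells, and KMT2A, KMT2D, EZH2, NSD2 and SETD2 are recurrently altered in human leukemia or lymphoma.

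Expression was measured by RNA-seq of polyadenylated RNA in 12 libraries of pre-B cells from mouse bone marrow (mice of 6 to 12 weeks), grown with IL-7 and transformed by retroviral BCR-ABL1. Cells of all 4 groups carried Ctnnb1Ex3fl/+, an allele of the β-catenin gene whose exon 3 Cre can remove, which leaves a protein that escapes degradation. The groups, with 3 libraries each, were ERT2 WT (empty receptor domain, nontargeting guides sgNTC), Cre-ERT2 WT (inducible Cre, sgNTC), ERT2 KO (empty receptor domain, guides sgIkzf1 and sgIkzf3) and Cre-ERT2 KO (inducible Cre, the same guides). Guides were delivered as Cas9 ribonucleoprotein, lines were raised from single cells, transduced cells were sorted by GFP, and the protocol places 4-hydroxytamoxifen (4-OHT) treatment 1 day before harvest in a sentence about chromatin experiments. Which clone or culture each replicate came from is not given, so effects of the guides and differences between clones cannot be told apart, and adjusted p-values measure only the spread between these samples, which may be technical.

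Values are the deposited log2 expression values, normalized between libraries, and every difference below is a difference of log2 values. Whether they are scaled by gene length is not given, so levels are compared between libraries of 1 gene and not between genes. Library medians lay between 9.06 and 9.11, and depth is unknown. A gene was called at a limma adjusted p under 0.05 over all 12151 genes, from a fit to all 12 libraries. The median SD within a group of 3 was 0.031 for the 55 genes, and 6 of them (Kdm5b, Kdm7a, Kdm8, Prmt2, Setd4 and Setd6) had a mean below 8 on the deposited scale. Ikzf1 mRNA was not lower in libraries labelled KO (differences of 1.01 in ERT2 and 0.90 in Cre-ERT2), whereas Ikzf3 fell by 0.65 and 0.70. The study reports that western blots of its clonal lines showed the deletion of Ikaros factors. Gene-level mRNA does not show loss of protein, and KO stands for the label. The Y-linked genes Kdm5d, Uty, Ddx3y and Eif2s3y were measured in all 12 libraries.

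The first question was how the libraries labelled KO differed from WT, and both rises and falls occurred in most enzyme classes. Between ERT2 libraries 39 of 55 genes (70.9%) were called, beside 59.0% of all genes, with 19 higher and 20 lower in KO, beside 29.8% and 29.3%. Between Cre-ERT2 libraries 32 of 55 (58.2%) were called, beside 58.9% of all genes, with 14 higher and 18 lower, beside 30.4% and 28.6%. The background itself is broad, with 7175 and 7161 genes called, and no excess was read from these shares. Changes were small, with a median absolute difference of 0.13 in both comparisons, against 0.10 and 0.11 for all genes. At least 0.2 separated the groups for 15 called genes of the 55 in ERT2 and 19 in Cre-ERT2 libraries, beside 28.5% and 28.6% of all genes. The groups did not overlap for 40 and 34 genes, beside 65.5% and 63.6% of all genes. With library medians set equal, the splits became 14 higher and 22 lower in ERT2 and 13 higher and 21 lower in Cre-ERT2, while those of all genes became 2866 higher and 4747 lower, and 2983 higher and 4789 lower.

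The ERT2 and Cre-ERT2 comparisons share no library, and 30 genes were called in the same direction in both (76.9% of the first list and 93.8% of the second). They make up 54.5% of the 55 genes, beside 49.0% of all genes called alike in both. The 13 that were higher in both were Kdm1a, Kdm2b, Kdm3a, Kdm4a, Kdm4b, Kdm5c, Kdm6b, Prmt7, Setd3, Setd5, Setd6, Setdb1 and Suv420h2. The 17 that were lower in both were Ash1l, Dot1l, Ezh2, Kdm1b, Kdm5b, Kdm6a, Kdm7a, Kdm8, Kmt2c, Kmt2e, Prmt3, Setd1b, Setd2, Setdb2, Suv420h1, Suz12 and Whsc1l1. Kmt2d was called in opposite directions, 8 genes were called in ERT2 only, Setd8 in Cre-ERT2 only, and 15 in neither. Across the 55 genes both sets of differences correlated with Pearson's r of 0.899 and Spearman's rho of 0.873, a description over genes that are not independent. Both comparisons take their spread from 1 fit, and cells of either vector may descend from the same lines.

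**Figure D1:**
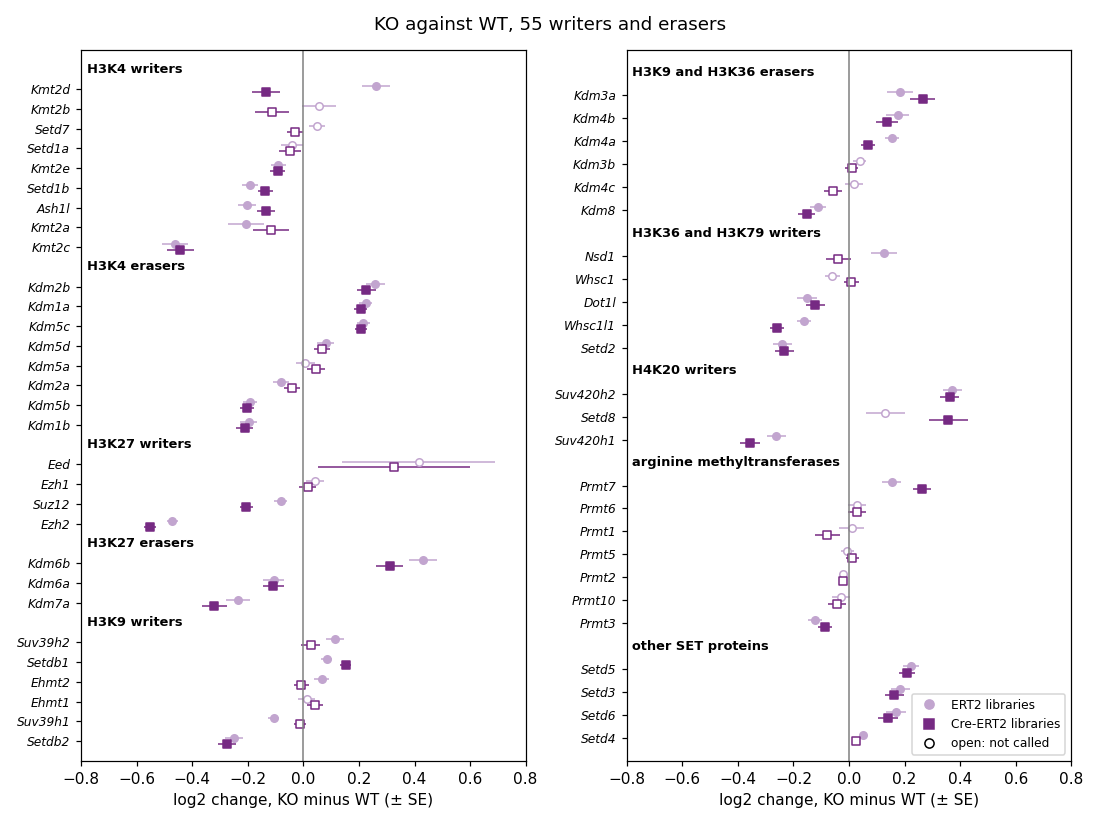
Differences between libraries labelled KO and WT (log2, horizontal axis, bars are the SE of the fit) for 55 genes sorted by assigned class. Circles stand for ERT2 and squares for Cre-ERT2 libraries, 3 against 3 each. Filled symbols were called at a limma adjusted p under 0.05, and both symbols of a gene lie on the same side of 0 for each of the 30 genes called alike in both comparisons, with Ezh2 and Kmt2c farthest to the left.

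Cell identity markers moved with the KO label as well. Of 11 pre-B cell markers, 7 were lower and 2 higher in ERT2 KO than in ERT2 WT libraries, and 8 were lower and 2 higher in the Cre-ERT2 pair. Of all genes, 29.3% were lower and 29.8% higher in the ERT2 pair, and 28.6% were lower and 30.4% higher in the Cre-ERT2 pair. The summed unlogged values of the 11 markers ran from 112000 to 117000 in WT and from 83000 to 88300 in KO libraries. Lyz2, a myeloid and macrophage gene, was higher by 0.99 and 1.23, the other analysed myeloid gene Itgam was lower, and the summed values of both ran from 189 to 196 in WT and from 350 to 433 in KO libraries. Cd5, a T cell marker also found on some B cells, was higher in KO by 0.13 and 0.64 and with β-catenin by 0.51 in WT and 1.02 in KO cells. The other 4 T cell, 4 myeloid, 4 erythroid and 4 stromal markers were not analysed here. In bulk RNA fewer cells of a type and less RNA per cell cannot be told apart, and the part of these shifts in the results on histone enzymes was not tested.

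Of the 55 genes Ezh2 had the widest KO difference with either vector. This gene (chr6:47530139-47595341, minus strand, GRCm38), the main H3K27 methyltransferase, read 13.82, 13.79 and 13.81 in ERT2 WT, 14.20, 14.22 and 14.24 in Cre-ERT2 WT, 13.36, 13.33 and 13.31 in ERT2 KO and 13.64, 13.68 and 13.69 in Cre-ERT2 KO libraries. All KO values lay below all WT values of the same vector, and all Cre-ERT2 values lay above all ERT2 values of the same background, so the 4 groups did not overlap. In KO libraries Ezh2 fell by 0.47 (SE 0.0214, limma adjusted p 1.13e-09) with ERT2 and by 0.55 (SE 0.0214, limma adjusted p 2.17e-10) with Cre-ERT2. That is 0.721 and 0.682 of the WT level. The calls held under all 22 alternatives in each comparison.

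Suz12 (chr11:79993106-80034123, plus strand), the scaffold subunit of PRC2, was also lower in KO. It read 13.06, 13.08 and 13.04 in ERT2 WT, 13.12, 13.17 and 13.09 in Cre-ERT2 WT, 13.00, 12.97 and 12.96 in ERT2 KO and 12.91, 12.90 and 12.95 in Cre-ERT2 KO libraries. KO libraries lay below WT libraries throughout, with falls of 0.08 (limma adjusted p 0.0089) in ERT2 and 0.21 (limma adjusted p 7.07e-06) in Cre-ERT2. Ezh1, the second catalytic subunit, read 9.72, 9.76 and 9.76 in ERT2 WT, 9.76, 9.85 and 9.79 in Cre-ERT2 WT, 9.74, 9.78 and 9.84 in ERT2 KO and 9.83, 9.82 and 9.81 in Cre-ERT2 KO libraries, and neither KO difference (0.04 and 0.02) passed the test. Eed, which binds trimethylated H3K27, varied more between replicates than any other of the 55 genes. Its values were 8.23, 7.85 and 8.79 in ERT2 WT, 7.69, 8.79 and 8.37 in Cre-ERT2 WT, 8.85, 8.84 and 8.42 in ERT2 KO and 8.31, 8.86 and 8.66 in Cre-ERT2 KO libraries, with differences of 0.42 (SE 0.275) and 0.33 (SE 0.275) that were not called. A change of the size seen at Ezh2 could not be resolved there.

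**Figure D2:**
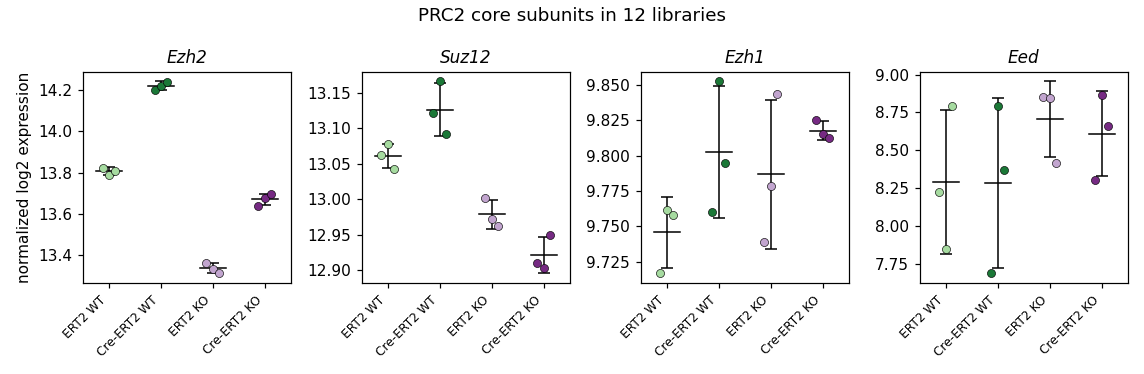
Normalized log2 expression (vertical axis, a separate range for each gene) of the PRC2 core genes in the 12 libraries, grouped by vector and label, with points for libraries, horizontal lines for means and bars for the SD (n = 3). Ezh2 forms 4 groups without overlap from 13.31 to 14.24, Suz12 is lower in KO, and Eed ranges from 7.69 to 8.86 with overlap of all groups.

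Among the 9 genes that write H3K4 methylation or are classed with these writers, 1 rose and 5 fell in ERT2 KO libraries, and none rose and 5 fell in Cre-ERT2 KO libraries. Class counts here and below stand beside 29.8% of all genes higher and 29.3% lower in ERT2 KO, and 30.4% and 28.6% in Cre-ERT2 KO libraries. No excess was read from them. The 4 of these 9 genes that fell in both comparisons were Kmt2c, Kmt2e, Setd1b and Ash1l. Kmt2c (chr5:25271798-25498783, minus strand), a monomethylase of enhancers, read 11.33, 11.32 and 11.36 in ERT2 WT, 11.31, 11.41 and 11.44 in Cre-ERT2 WT, 10.88, 10.77 and 10.96 in ERT2 KO and 11.01, 10.91 and 10.92 in Cre-ERT2 KO libraries. Its falls of 0.46 (SE 0.0475, limma adjusted p 2.86e-06) and 0.44 (SE 0.0475, limma adjusted p 4.2e-06) were second in size to those of Ezh2, with no overlap between groups.

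Kmt2d (chr15:98831669-98871204, minus strand), the close relative of Kmt2c at enhancers, did not follow it. Its values were 11.58, 11.72 and 11.68 in ERT2 WT, 11.92, 11.78 and 11.86 in Cre-ERT2 WT, 11.91, 11.95 and 11.90 in ERT2 KO and 11.82, 11.71 and 11.62 in Cre-ERT2 KO libraries. With ERT2 it was higher in KO by 0.26 (SE 0.0509, limma adjusted p 0.000736) and the groups did not overlap. With Cre-ERT2 it was lower by 0.13 (SE 0.0509, limma adjusted p 0.0393), with overlapping groups, and this call held in 11 of 22 alternatives (adjusted p 0.0078 to 0.167), being lost without Cre-ERT2 WT replicate 1 or 3, ERT2 KO replicate 1, or Cre-ERT2 KO replicate 2 or 3. A 455-base stretch of Kmt2d has a near-identical pseudogene copy, and how reads of that stretch were assigned was not tested.

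Kmt2a, the MLL gene of leukemia translocations, read 11.24, 11.28 and 11.40 in ERT2 WT, 11.36, 11.33 and 11.46 in Cre-ERT2 WT, 11.11, 11.09 and 11.11 in ERT2 KO and 11.44, 11.13 and 11.23 in Cre-ERT2 KO libraries. It fell by 0.21 (limma adjusted p 0.0151) in ERT2 libraries, a call lost without ERT2 WT replicate 3, and differed by -0.12 without a call in Cre-ERT2 libraries. Kmt2e, a SET protein that reads H3K4 methylation and lacks sure enzyme activity, read 12.48, 12.52 and 12.48 in ERT2 WT, 12.58, 12.62 and 12.59 in Cre-ERT2 WT, 12.38, 12.40 and 12.43 in ERT2 KO and 12.53, 12.44 and 12.54 in Cre-ERT2 KO libraries. It fell by 0.09 (limma adjusted p 0.0144, lost without ERT2 WT replicate 2 or ERT2 KO replicate 1) and 0.09 (limma adjusted p 0.0122). After quantile normalization neither was called, at -0.05 (limma adjusted p 0.0908) and -0.04 (limma adjusted p 0.155). Setd1a, a promoter H3K4 methyltransferase, read 11.22, 11.18 and 11.14 in ERT2 WT, 11.23, 11.16 and 11.17 in Cre-ERT2 WT, 11.14, 11.12 and 11.15 in ERT2 KO and 11.25, 11.09 and 11.08 in Cre-ERT2 KO libraries, with overlapping groups and no call, while its paralog Setd1b fell by 0.19 and 0.14. More than 50% of the exonic bases of Setd1a (51.8%) are shared with a same-strand gene model, Gm49388. Ash1l, an H3K36 methyltransferase also linked to H3K4, fell by 0.20 and 0.13, and Kmt2b and Setd7 were not called in either comparison.

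**Figure D3:**
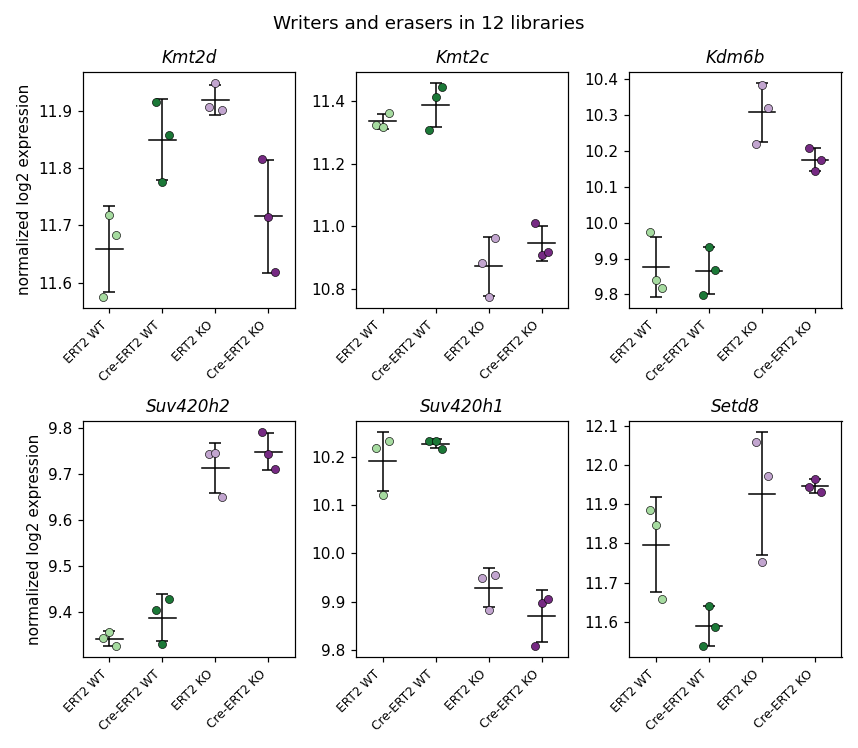
Normalized log2 expression (vertical axis, a separate range for each gene, not from 0) of 6 histone methyltransferase and demethylase genes in the 12 libraries, with points for libraries, horizontal lines for means and bars for the SD (n = 3). Kmt2c and Suv420h1 are lower and Kdm6b and Suv420h2 higher in both KO groups, whereas the Kmt2d means are higher in Cre-ERT2 WT and ERT2 KO than in the other groups.

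The start sites of 3 of these genes are shown because Kmt2c and Kmt2d, paralogs, went different ways in ERT2 libraries and Suz12 fell with Ezh2. The 250 bases before each RefSeq start (GRCm38.p6, 5′ to 3′ on the gene's strand) were searched on both strands for GGGAA, the core of Ikaros sites, and CTTTGAT, the core of TCF/LEF sites, which β-catenin acts through. Capitals mark a match, TTCCC and ATCAAAG being the same cores read on the other strand.
Kmt2d (chr15:98871206-98871455, minus strand): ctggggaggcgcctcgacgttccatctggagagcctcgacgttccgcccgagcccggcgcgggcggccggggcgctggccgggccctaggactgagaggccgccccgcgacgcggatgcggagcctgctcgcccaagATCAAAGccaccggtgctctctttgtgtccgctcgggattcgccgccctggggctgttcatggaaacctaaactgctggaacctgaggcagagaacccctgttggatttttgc
Suz12 (chr11:79992856-79993105, plus strand): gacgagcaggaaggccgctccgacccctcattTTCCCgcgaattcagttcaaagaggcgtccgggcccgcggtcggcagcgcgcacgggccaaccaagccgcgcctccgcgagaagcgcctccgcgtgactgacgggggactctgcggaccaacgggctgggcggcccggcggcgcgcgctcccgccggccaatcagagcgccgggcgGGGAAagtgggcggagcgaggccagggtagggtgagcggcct
Kmt2c (chr5:25498784-25499033, minus strand): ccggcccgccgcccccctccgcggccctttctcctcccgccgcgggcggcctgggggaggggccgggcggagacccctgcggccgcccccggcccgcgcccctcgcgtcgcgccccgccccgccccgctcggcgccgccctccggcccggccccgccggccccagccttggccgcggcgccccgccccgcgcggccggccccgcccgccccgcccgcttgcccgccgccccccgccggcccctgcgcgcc
The Kmt2d window holds CTTTGAT once, 113 bases before the start, and no GGGAA. In the Suz12 window GGGAA occurs at 218 and 42 bases before the start, and the Kmt2c window, 91.6% G and C, holds neither. The Ezh2 window, not printed here, also holds neither core, although Ezh2 had the widest differences. Of 43 members with a RefSeq promoter, 19 (44.2%) held GGGAA, beside 56.0% of all 27025 RefSeq promoters and 58.4% of 8566 promoters of genes in the table. CTTTGAT occurred in 1 of the 43 (2.33%), Kmt2d, beside 3.26% and 2.17%. GGGAA was present in 6 of 11 members higher in KO in both comparisons and in 4 of 13 that were lower. These are letter matches and not binding sites.

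Genes classed here as erasers of H3K4 methylation, Kdm2a and Kdm2b among them, went both ways. Of 8, 4 rose and 3 fell in ERT2 KO, and 3 rose and 2 fell in Cre-ERT2 KO libraries. Kdm1a, the lysine demethylase LSD1 of the CoREST complex, read 11.51, 11.55 and 11.56 in ERT2 WT, 11.64, 11.59 and 11.64 in Cre-ERT2 WT, 11.77, 11.77 and 11.75 in ERT2 KO and 11.85, 11.83 and 11.81 in Cre-ERT2 KO libraries, with no overlap between WT and KO. It rose by 0.22 (limma adjusted p 2.79e-06) and 0.21 (limma adjusted p 5.79e-06). Its paralog Kdm1b, which acts on H3K4 methylation in oocytes, went the other way, by -0.20 and -0.21 (limma adjusted p 8.01e-05 and 4.3e-05).

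The KDM5 enzymes remove trimethylation of H3K4 and also parted. Kdm5b read 6.19, 6.10 and 6.15 in ERT2 WT, 6.18, 6.17 and 6.20 in Cre-ERT2 WT, 5.95, 5.97 and 5.93 in ERT2 KO and 5.98, 6.00 and 5.96 in Cre-ERT2 KO libraries, so that all KO libraries lay below all WT libraries. It fell by 0.19 and 0.20 (limma adjusted p 2.56e-05 and 1.45e-05). The X-linked Kdm5c rose by 0.22 and 0.21. Kdm5a read 11.84, 11.88 and 11.87 in ERT2 WT, 11.94, 11.85 and 11.98 in Cre-ERT2 WT, 11.90, 11.85 and 11.87 in ERT2 KO and 12.02, 11.93 and 11.94 in Cre-ERT2 KO libraries and was not called. Kdm5d, the Y-linked copy, rose by 0.08 in ERT2 libraries, a call lost without any of 5 of the 6 ERT2 libraries (ERT2 KO replicate 2 is the other) and under both other scalings.

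Kdm2b, which recruits a variant Polycomb complex to CpG islands, read 11.21, 11.27 and 11.28 in ERT2 WT, 11.23, 11.11 and 11.13 in Cre-ERT2 WT, 11.46, 11.55 and 11.52 in ERT2 KO and 11.40, 11.40 and 11.35 in Cre-ERT2 KO libraries. It rose by 0.26 (limma adjusted p 2.82e-05) and 0.23 (limma adjusted p 8.43e-05), with KO above WT in every pair of libraries of 1 vector. A 615-base copy, Gm12397, is also in the table, so reads of that stretch are uncertain. Kdm2a, its paralog, read 12.00, 12.06 and 12.03 in ERT2 WT, 12.07, 12.10 and 12.10 in Cre-ERT2 WT, 11.95, 11.90 and 12.00 in ERT2 KO and 12.04, 12.01 and 12.09 in Cre-ERT2 KO libraries. It fell by 0.08 in ERT2 libraries (limma adjusted p 0.029), a call lost without ERT2 WT replicate 2 or 3 or ERT2 KO replicate 1 or 2 and after quantile normalization (-0.03, limma adjusted p 0.307), and was not called in Cre-ERT2 libraries.

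Each of the 3 erasers of H3K27 methylation differed in both comparisons. Kdm6b, the inducible JMJD3, read 9.97, 9.84 and 9.82 in ERT2 WT, 9.80, 9.93 and 9.87 in Cre-ERT2 WT, 10.22, 10.38 and 10.32 in ERT2 KO and 10.21, 10.15 and 10.17 in Cre-ERT2 KO libraries. It rose by 0.43 (SE 0.0501, limma adjusted p 9.08e-06) and 0.31 (SE 0.0501, limma adjusted p 0.000159), and no KO library reached down to a WT value. Kdm6a, the X-linked UTX, read 9.61, 9.75 and 9.73 in ERT2 WT, 9.72, 9.82 and 9.80 in Cre-ERT2 WT, 9.60, 9.57 and 9.61 in ERT2 KO and 9.64, 9.70 and 9.67 in Cre-ERT2 KO libraries. Its falls of 0.11 and 0.11 (limma adjusted p 0.0291 and 0.0269) were lost without ERT2 WT replicate 2 or 3 or ERT2 KO replicate 1 or 2, and without Cre-ERT2 WT replicate 2 or 3 or Cre-ERT2 KO replicate 1 or 3. Kdm7a, which acts on H3K9 and H3K27, read 7.00, 7.11 and 7.10 in ERT2 WT, 7.13, 7.14 and 7.23 in Cre-ERT2 WT, 6.85, 6.79 and 6.86 in ERT2 KO and 6.83, 6.78 and 6.93 in Cre-ERT2 KO libraries. It fell by 0.24 and 0.32 (limma adjusted p 0.000514 and 3.93e-05), with all KO libraries below all WT libraries.

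In the H3K9 class, 3 of 6 writers rose and 2 fell in ERT2 KO, and 1 rose and 1 fell in Cre-ERT2 KO libraries. Setdb1, which silences endogenous retroviruses, read 11.25, 11.26 and 11.24 in ERT2 WT, 11.19, 11.18 and 11.19 in Cre-ERT2 WT, 11.34, 11.31 and 11.36 in ERT2 KO and 11.34, 11.34 and 11.34 in Cre-ERT2 KO libraries. It was higher in KO by 0.08 and 0.15 (limma adjusted p 0.00245 and 2.25e-05), whereas Setdb2 was lower by 0.25 and 0.28 (limma adjusted p 2.19e-05 and 8.57e-06). Suv39h1, a trimethylase of pericentric heterochromatin, read 11.62, 11.63 and 11.63 in ERT2 WT, 11.57, 11.58 and 11.59 in Cre-ERT2 WT, 11.52, 11.54 and 11.50 in ERT2 KO and 11.56, 11.60 and 11.54 in Cre-ERT2 KO libraries. It fell by 0.11 (limma adjusted p 0.000712) in ERT2 libraries and differed by -0.01 without a call in Cre-ERT2 libraries. An opposite-strand gene covers 14.6% of its exonic bases, and whether counting used strand is not given.

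Suv39h2, its paralog, read 9.13, 9.13 and 9.23 in ERT2 WT, 9.25, 9.21 and 9.21 in Cre-ERT2 WT, 9.26, 9.30 and 9.27 in ERT2 KO and 9.24, 9.21 and 9.30 in Cre-ERT2 KO libraries. A rise of 0.11 in ERT2 libraries (limma adjusted p 0.0108) was not called after centering on library medians. Ehmt2, the G9a dimethylase of H3K9, read 12.20, 12.21 and 12.11 in ERT2 WT, 12.13, 12.18 and 12.17 in Cre-ERT2 WT, 12.25, 12.24 and 12.23 in ERT2 KO and 12.16, 12.16 and 12.13 in Cre-ERT2 KO libraries. Its rise of 0.07 in ERT2 libraries (limma adjusted p 0.0475) was lost without ERT2 WT replicate 3 or any of the 3 ERT2 KO libraries and after centering. It was also lost without Cre-ERT2 WT replicate 2 or 3 or Cre-ERT2 KO replicate 1 or 2, which enter the spread but not the difference. Its partner Ehmt1, the GLP protein, read 11.45, 11.47 and 11.48 in ERT2 WT, 11.52, 11.44 and 11.50 in Cre-ERT2 WT, 11.47, 11.45 and 11.51 in ERT2 KO and 11.57, 11.47 and 11.54 in Cre-ERT2 KO libraries, with no call in any comparison.

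Among the 6 genes classed here as erasers of H3K9 and H3K36 methylation, Kdm8 among them, 3 rose and 1 fell in KO with either vector. Kdm3a, a demethylase of H3K9 induced by hypoxia, read 10.98, 11.11 and 11.12 in ERT2 WT, 11.22, 11.08 and 11.16 in Cre-ERT2 WT, 11.31, 11.26 and 11.18 in ERT2 KO and 11.44, 11.41 and 11.41 in Cre-ERT2 KO libraries. It rose by 0.18 and 0.27 (limma adjusted p 0.00407 and 0.000282), all KO values lying above the WT values of the same vector. Kdm4a, which acts on trimethylated H3K9 and H3K36, read 11.34, 11.33 and 11.36 in ERT2 WT, 11.44, 11.38 and 11.41 in Cre-ERT2 WT, 11.50, 11.52 and 11.47 in ERT2 KO and 11.51, 11.45 and 11.47 in Cre-ERT2 KO libraries. It rose by 0.15 and 0.07 (limma adjusted p 0.000107 and 0.0255), and the latter call was lost without Cre-ERT2 WT replicate 2 or 3 or Cre-ERT2 KO replicate 1 and after centering. Kdm4b rose by 0.18 and 0.14, the latter lost without Cre-ERT2 KO replicate 2. Kdm8 fell by 0.11 and 0.15, and Kdm3b and Kdm4c were not called.

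Of the 5 writers of H3K36 and H3K79 methylation, 1 was higher and 3 were lower in ERT2 KO, and none was higher and 3 were lower in Cre-ERT2 KO libraries. Setd2, the trimethylase of H3K36 that travels with RNA polymerase II, read 12.01, 12.01 and 12.02 in ERT2 WT, 12.09, 12.12 and 12.13 in Cre-ERT2 WT, 11.82, 11.71 and 11.78 in ERT2 KO and 11.95, 11.83 and 11.87 in Cre-ERT2 KO libraries. It fell by 0.24 and 0.23 (limma adjusted p 4.68e-05 and 5.95e-05). Dot1l, the H3K79 methyltransferase, read 11.44, 11.48 and 11.38 in ERT2 WT, 11.39, 11.42 and 11.40 in Cre-ERT2 WT, 11.30, 11.26 and 11.28 in ERT2 KO and 11.34, 11.30 and 11.20 in Cre-ERT2 KO libraries. It fell by 0.15 and 0.12 (limma adjusted p 0.00272 and 0.0103), with all KO libraries below all WT libraries.

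The NSD family dimethylates H3K36. Whsc1l1 (Nsd3) read 11.37, 11.41 and 11.37 in ERT2 WT, 11.45, 11.49 and 11.48 in Cre-ERT2 WT, 11.20, 11.21 and 11.27 in ERT2 KO and 11.21, 11.19 and 11.25 in Cre-ERT2 KO libraries, and its falls of 0.16 and 0.26 (limma adjusted p 0.000131 and 1.94e-06) left no overlap. Whsc1 (Nsd2), the family member activated in lymphoid leukemia, read 13.58, 13.65 and 13.60 in ERT2 WT, 13.59, 13.59 and 13.55 in Cre-ERT2 WT, 13.58, 13.50 and 13.56 in ERT2 KO and 13.61, 13.59 and 13.56 in Cre-ERT2 KO libraries and was called in no comparison. Nsd1 read 11.56, 11.76 and 11.78 in ERT2 WT, 11.77, 11.77 and 11.80 in Cre-ERT2 WT, 11.83, 11.84 and 11.81 in ERT2 KO and 11.78, 11.72 and 11.73 in Cre-ERT2 KO libraries. Its rise of 0.13 in ERT2 libraries (limma adjusted p 0.0312) was lost without ERT2 WT replicate 1, which had the lowest of the 12 values, or without any 1 of the ERT2 KO libraries, and after centering.

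The H4K20 writers did not all move in the same direction. Suv420h2 (Kmt5c), a trimethylase, read 9.34, 9.36 and 9.32 in ERT2 WT, 9.40, 9.33 and 9.43 in Cre-ERT2 WT, 9.74, 9.75 and 9.65 in ERT2 KO and 9.79, 9.74 and 9.71 in Cre-ERT2 KO libraries. It rose by 0.37 (SE 0.0352, limma adjusted p 1.35e-06) and 0.36 (SE 0.0352, limma adjusted p 1.69e-06), with KO above WT in all libraries. Suv420h1 (Kmt5b), the main dimethylase, read 10.22, 10.12 and 10.23 in ERT2 WT, 10.23, 10.23 and 10.22 in Cre-ERT2 WT, 9.95, 9.88 and 9.96 in ERT2 KO and 9.81, 9.90 and 9.90 in Cre-ERT2 KO libraries. It fell by 0.26 (SE 0.0359, limma adjusted p 4.15e-05) and 0.36 (SE 0.0359, limma adjusted p 2.37e-06), with KO below WT in all libraries. Setd8 (Kmt5a), the monomethylase whose protein peaks in mitosis, read 11.88, 11.85 and 11.66 in ERT2 WT, 11.54, 11.64 and 11.59 in Cre-ERT2 WT, 12.06, 11.75 and 11.97 in ERT2 KO and 11.94, 11.97 and 11.93 in Cre-ERT2 KO libraries. It was higher in KO by 0.36 (SE 0.0706, limma adjusted p 0.000768) in Cre-ERT2 libraries, while the difference of 0.13 in ERT2 libraries was not called, and the gap between both values, 0.23 (SE 0.0998), was itself not called (limma adjusted p 0.265).

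Of the 7 protein arginine methyltransferases, 1 rose and 1 fell in either comparison. Prmt7, which monomethylates arginine, read 10.86, 10.80 and 10.83 in ERT2 WT, 10.63, 10.67 and 10.68 in Cre-ERT2 WT, 11.01, 10.98 and 10.96 in ERT2 KO and 10.92, 10.99 and 10.85 in Cre-ERT2 KO libraries. It rose by 0.15 and 0.26 (limma adjusted p 0.00156 and 1.93e-05), and Prmt3, a ribosomal protein methylase, fell by 0.12 and 0.09. Prmt1, the main asymmetric dimethylase, read 10.30, 10.40 and 10.42 in ERT2 WT, 10.35, 10.32 and 10.43 in Cre-ERT2 WT, 10.36, 10.37 and 10.42 in ERT2 KO and 10.33, 10.34 and 10.20 in Cre-ERT2 KO libraries, and Prmt5, the main symmetric dimethylase, read 12.45, 12.42 and 12.40 in ERT2 WT, 12.36, 12.36 and 12.37 in Cre-ERT2 WT, 12.44, 12.43 and 12.39 in ERT2 KO and 12.34, 12.36 and 12.42 in Cre-ERT2 KO libraries. Neither was called in any comparison, nor were Prmt2, Prmt6 and Prmt10.

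The remaining SET proteins, Setd3 (an actin histidine methylase), Setd4, Setd5 and Setd6 (a methylase of non-histone proteins), were all higher in ERT2 KO libraries. Setd5 rose by 0.22 and 0.21, Setd3 by 0.18 and 0.16 and Setd6 by 0.17 and 0.14, in both comparisons. Setd6 in Cre-ERT2 libraries was not called after quantile normalization. Setd4 rose by 0.05 in ERT2 libraries, from a mean of 3.95 in WT to 4.00 in KO, and this call was lost after centering. These values are low on the deposited scale, and how the unstated transformation affects their spread was not tested. Setd3 has 2 pseudogene copies, the longest match covering 946 bases.

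The second question was how stabilized β-catenin (Cre-ERT2 against ERT2) moved the same enzymes in each background. All groups carried the Ctnnb1Ex3fl allele, so effects of active Cre and of stabilized β-catenin cannot be told apart. Every difference between Cre-ERT2 and ERT2 is called a β-catenin effect in that sense. In WT cells 7 of 55 genes (12.7%) were called, beside 11.9% of all genes, with 5 higher and 2 lower, beside 5.93% and 5.95%. In KO cells 8 (14.5%) were called, beside 12.6% of all genes, with 5 higher and 3 lower, beside 7.27% and 5.33%. Both shares lay near the background. The groups did not overlap for 21 and 18 genes, beside 31.1% and 28.3% of all genes, and median absolute differences were 0.057 and 0.047, against 0.036 and 0.037 for all genes. After centering, 3 were higher and 2 lower in WT, and 2 higher and 3 lower in KO cells, while the counts of all genes were 641 higher and 831 lower, and 774 higher and 766 lower. Pre-B cell markers moved here too, with 1 of 11 higher and 5 lower in WT and 1 higher and 6 lower in KO cells, and their part in the results was not tested.

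Ezh2 moved most. Using the library values given above, it rose by 0.42 (SE 0.0214, limma adjusted p 9.18e-08) in WT and by 0.33 (SE 0.0214, limma adjusted p 3.77e-07) in KO cells, to 1.33 and 1.26 times the ERT2 level. Both calls held in all 22 alternatives. The β-catenin effects differed by -0.08 (KO minus WT, SE 0.0303), which was not called (limma adjusted p 0.186). In Cre-ERT2 KO libraries Ezh2 still read below ERT2 WT, with 13.64 to 13.69 against 13.79 to 13.82.

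Kmt2d was the 1 gene of the 55 whose β-catenin effect was called as different between backgrounds (1.82%, beside 4.53% of all genes), with none higher and 1 lower, beside 2.71% and 1.82%. It rose by 0.19 (SE 0.0509, limma adjusted p 0.0294) in WT cells, from 11.58, 11.72 and 11.68 to 11.92, 11.78 and 11.86. In KO cells it fell by 0.20 (SE 0.0509, limma adjusted p 0.021), from 11.91, 11.95 and 11.90 to 11.82, 11.71 and 11.62. Neither pair of groups overlapped. The difference of effects, -0.39 (SE 0.072, limma adjusted p 0.00767), was called in all 21 alternatives (adjusted p 0.00344 to 0.0243). The rise in WT was not called without ERT2 WT replicate 1 or 3 or Cre-ERT2 WT replicate 1 or 3 (adjusted p up to 0.121), and the fall in KO was not called without ERT2 KO replicate 1 or 2 or Cre-ERT2 KO replicate 2 or 3 (adjusted p up to 0.078).

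**Figure D4:**
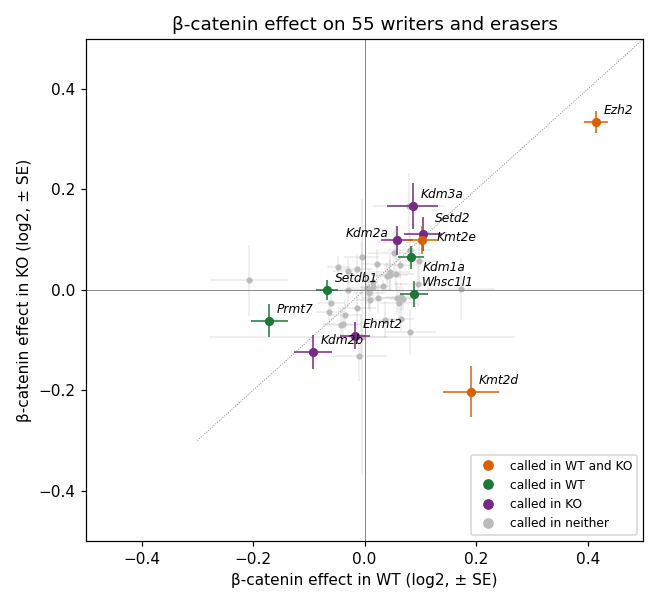
β-catenin effect (Cre-ERT2 minus ERT2, log2) in WT cells (horizontal axis) and KO cells (vertical axis) for 55 genes, with bars for the SE of the fit, colors for the calls at a limma adjusted p under 0.05 and a dotted line of equal effects. Ezh2 stands at 0.42 and 0.33 near the line, and Kmt2d, at 0.19 and -0.20, is the gene called in opposite directions.

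Smaller calls filled the rest. Kmt2e rose by 0.10 and 0.10 (limma adjusted p 0.032 and 0.0351) in WT and KO cells. Called in WT and not in KO cells, Prmt7 was lower by 0.17 (limma adjusted p 0.00491), Setdb1 lower by 0.07 (0.0426), Whsc1l1 higher by 0.09 (0.0415) and Kdm1a higher by 0.08 (0.034). Called in KO and not in WT cells, Kdm3a rose by 0.17, Setd2 by 0.11 and Kdm2a by 0.10, and Kdm2b fell by 0.12 and Ehmt2 by 0.09 (limma adjusted p 0.0327, 0.0488, 0.0432, 0.0323 and 0.0434). None of these 10 differed between backgrounds by the test of the difference. Leaving out single libraries kept every call of Ezh2 and Prmt7 in WT and of Ezh2 in KO cells, and every other β-catenin call of a member was lost without at least 1 library. Centering also ended both Kmt2e calls and those of Whsc1l1, Kdm2a and Setd2, and quantile normalization ended those of Kdm1a, Setdb1, Kdm2a and Setd2. Suz12 had opposite values, 0.07 in WT and -0.06 in KO cells, and a difference of -0.12 (limma adjusted p 0.0568) that passed the threshold without Cre-ERT2 WT replicate 3 or Cre-ERT2 KO replicate 3 (0.0482 and 0.0349).

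The proteins that work with these enzymes were counted from fixed lists, without a test of the lists. Of all genes, 59.0% were called for KO in ERT2 and 58.9% in Cre-ERT2 libraries. For β-catenin the shares were 11.9% in WT and 12.6% in KO cells. No excess over these shares was read from the list counts below. Of 13 subunits of the COMPASS and KMT2 complexes, 1 rose and 3 fell in ERT2 KO and 2 rose and 3 fell in Cre-ERT2 KO libraries, among them Hcfc1 (-0.20 and -0.18) and Cxxc1 (-0.18 and -0.13), which directs SETD1 complexes to CpG islands. Menin, encoded by Men1, was the 1 subunit called for β-catenin, at -0.12 in WT and -0.11 in KO cells. Of 7 accessory PRC2 subunits, 3 rose and 3 fell in ERT2 KO and 3 rose and 2 fell in Cre-ERT2 KO libraries. Jarid2, which targets PRC2, rose by 0.38 and 0.35, and Phf19 fell by 0.17 and 0.24. Rbbp4, a histone chaperone that PRC2 shares with other complexes, fell by 0.14 and 0.18.

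PRC1 is the Polycomb complex that binds H3K27 methylation and ubiquitinates H2A. Of its 18 genes, 4 rose and 8 fell in ERT2 KO and 4 rose and 5 fell in Cre-ERT2 KO libraries. Bmi1 fell by 0.41 and 0.44, while its alternative Pcgf2 rose by 0.31 and 0.40. The H3K27 readers Cbx6 (-0.34 and -0.28) and Cbx2 (-0.23 and -0.26) fell. With β-catenin, Cbx2 and Rybp rose in both backgrounds.

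CoREST carries Kdm1a to chromatin. Of its 10 listed genes, 6 rose and 3 fell in ERT2 KO and 5 rose and 3 fell in Cre-ERT2 KO libraries. Rcor2 rose by 0.52 and 0.63 and Phf21a, which reads unmethylated H3K4, by 0.39 and 0.40. Gse1 fell by 0.38 and 0.40 and the deacetylase Hdac1 by 0.21 and 0.27. Among 10 H3K9 readers and SETDB1 partners, 1 rose and 3 fell in either comparison, with Zfp644, a partner of G9a, at -0.18 and -0.21. Of 6 genes of DOT1L complexes, Mllt3 was the 1 called for β-catenin, at 0.21 and 0.16, and of 4 PRMT5 partners Wdr77 and Clns1a fell with β-catenin in WT cells (-0.17 and -0.09).

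Histone methyl enzymes with other names gave some of the wider differences. Of 12 such genes, 7 rose and 3 fell in ERT2 KO and 5 rose and 3 fell in Cre-ERT2 KO libraries. Smyd2, a lysine methylase, rose by 0.56 and 0.76, more than any of the 55 named enzymes, and the H3K9 methylase Prdm2 fell by 0.48 and 0.41. The demethylases Phf2 (-0.34 and -0.42) and Phf8 (-0.23 and -0.30) fell. Carm1, the arginine methylase also named Prmt4, rose by 0.27 and 0.29 in KO and fell with β-catenin by 0.14 in WT and 0.11 in KO cells.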

How the data were processed

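RNA-seq libraries were made with a stranded mRNA kit. According to the study's methods and the submitters' processing notes, the authors quantified reads with Salmon 1.4.0, aligned them with STAR 2.7.6 to mm10 (GRCm38) and used DESeq2 1.30.1. Whether counting used strand is not given in the sources used here. The deposited table holds 1 normalized log2 value per gene and library, made by the authors with a transformation that is not stated. It gives no counts, so depth is unknown, no counting interval is given, and the effect of the transformation on the spreads of genes with low values was not tested. Every per-sample column was matched to 1 library through its title.

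A linear model of 4 group means was fitted to 12 libraries and 12151 genes with limma 3.58.1 in R 4.3.3 (eBayes with a mean-dependent prior). P values of each of 5 contrasts were adjusted over all genes by the Benjamini-Hochberg method, and the script was tested on simulated data. Exact permutation of 3 against 3 libraries cannot give a p below 0.1 and was not used. The members and lists were chosen with earlier results of these data known. Library values are given for the 6 called members with the largest change in each 2-group comparison, every member called for the difference of effects, and 24 members fixed by role; other members are given by their differences, and further genes come from fixed lists of partners, markers and targeted genes. Gene positions are those of GENCODE vM21 (GRCm38), and copies are matches of at least 300 bases and 95% identity. The alternatives changed the scaling (library medians, quantiles), added a pseudocount of 1 or 64 to unlogged values, kept means above 8, used a replicate block, only the libraries of a comparison, a constant prior or a stricter threshold, and left out each library in turn.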

Additional observations from a re-analysis of the deposited data

Results flagged for a closer look

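The β-catenin effect on Kmt2d differed between backgrounds by the test of the difference itself, at -0.39 (KO minus WT, SE 0.072, limma adjusted p 0.00767). All 3 Cre-ERT2 values lay above all 3 ERT2 values in WT cells and below them in KO cells. This call held when each of the 12 libraries was left out in turn. No separate test for outlying libraries was run on groups of 3.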

How the results depend on the processing

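No member's called difference changed sign under any alternative. An adjusted p under 0.01 left 2 β-catenin calls in WT and 1 in KO cells, and a required change of 0.2 left 1 and 2, and 15 (ERT2) and 19 (Cre-ERT2) KO calls. Centering left 5 β-catenin calls in KO cells, a fit to the 6 KO libraries alone left 3, and a pseudocount of 64 gave 2 calls for the difference (Kmt2d and Suz12).

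The replicate numbers were not shown to pair the samples. Deviations of same-numbered libraries correlated between -0.0908 and 0.313 over 7729 genes, with 2 of 18 pairs over 0.1. With a replicate block, members called were 3 and 3 for β-catenin in WT and KO cells, 38 and 31 for KO in ERT2 and Cre-ERT2 libraries, and 1 for the difference.

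Leaving out single libraries gave 2 to 8 β-catenin calls in WT and 1 to 6 in KO cells, 33 to 39 and 29 to 33 KO calls in ERT2 and Cre-ERT2 libraries, and 1 to 2 calls for the difference. In WT the count was 2 without ERT2 WT replicate 1 or Cre-ERT2 WT replicate 3, 3 without ERT2 WT replicate 3 or Cre-ERT2 WT replicate 1, and 4 without replicate 2 of either. In KO it was 1 without ERT2 KO replicate 2 or Cre-ERT2 KO replicate 3, 2 without Cre-ERT2 KO replicate 1, 3 without ERT2 KO replicate 3, 4 without ERT2 KO replicate 1 or Cre-ERT2 WT replicate 3, and 5 without Cre-ERT2 KO replicate 2 or Cre-ERT2 WT replicate 2. For the difference it was 2 without Cre-ERT2 WT replicate 3 or Cre-ERT2 KO replicate 3. The cause of these losses was not tested. Depth is unknown, so no limit set by depth could be given.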
